A study of Mus musculus with 4 samples.

Results

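The genes described here are 33 genes of cholesterol and fatty acid synthesis, together with the proteins that control them, in primary mouse embryonic fibroblasts. They were chosen by name as a pathway list, and each was read from its brightest probe set where that probe set reached a signal of 500 on any array. Of the 33 genes, 31 had a probe set and 26 reached a signal of 500, out of 12393 named genes on the array, of which 4645 reached it. Acat2 and Insig1 had no probe set named for them, and Mvk, Pmvk, Dhcr7, Scap and Acaca stayed under 500 on every array.

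Total RNA was measured on 4 Affymetrix arrays, 1 per group, from subconfluent fibroblasts derived from e14.5 embryos. The tri-CH1 fibroblasts lacked the CH1 domain of p300 on each of its alleles and that of CBP on 1 allele only, and were held for 6 hours at 0.1% oxygen (hypoxia) or at 21% oxygen (normoxia). Wild-type fibroblasts were held for the same time at the same 2 oxygen levels. All 4 cultures were in DMEM with 10% FBS, pen-strep and l-glu, which had been brought to the oxygen level of the treatment overnight, and were kept at 37 °C with 5% carbon dioxide. The embryos themselves carried the deletions, 1 CBP allele kept its CH1 domain, and the labels do not give the number of embryos behind each culture. With 1 array per group there is no spread between replicates, so each difference within a genotype or at an oxygen level compares 2 arrays and has no replicate check. The only test used, a fit of oxygen plus genotype over all 4 arrays, is described with the results. The signal is the linear brightness of a probe set after each array was scaled to a target of 500, and a gene was counted as changed where 2 arrays differed by 2-fold or more and the brighter reached 500, with signals under 200 raised to 200. Signals of different genes are not set against each other, because probe sets differ in brightness for equal amounts of RNA.

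The checks of the labels come before the results. Bnip3, a mitophagy receptor induced by hypoxia-inducible factor (HIF), had signals of 10422 in tri-CH1 hypoxia, 493.5 in tri-CH1 normoxia, 10529.6 in wild-type hypoxia and 402.5 in wild-type normoxia. Slc2a1, the glucose transporter, and Ndrg1, a stress-response gene, were also past 2-fold with hypoxia in both genotypes, with log2 changes of 2.63 and 3.37 in tri-CH1 and 2.63 and 4.05 in wild type. All 10 fibroblast markers reached 500 on at least 1 array, and of the markers of other cell types only Krt8 and Krt18 did so. Pdgfra reached it only in tri-CH1 hypoxia, at 523, and Lum on neither wild-type array. The fibroblast markers differed between the cultures: Thy1 had signals of 3274 and 3837 on the tri-CH1 arrays against 12389 and 13148 on the wild-type arrays in hypoxia and normoxia, and Lum had 2684 and 1561.5 in tri-CH1 against 419 and 355 in wild type. The part of this difference in the genotype results was not tested. The adipocyte markers stayed under 500, with summed signals of 1056 in tri-CH1 hypoxia, 854 in tri-CH1 normoxia, 675 in wild-type hypoxia and 459.6 in wild-type normoxia, and their part in the fatty acid results was not tested. Xist, the RNA that silences an X chromosome in female cells, had signals of 263 and 318 on the tri-CH1 arrays against 3523 and 3095.5 on the wild-type arrays in hypoxia and normoxia, so genotype and embryo sex cannot be told apart. The lot number of the wild-type normoxia array differed from that of the remaining 3, and this array had a scale factor of 3.46, against 6.73 to 10.3 on the others, so lot cannot be told apart from that group.

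Cells make cholesterol from acetyl-CoA through mevalonate, farnesyl pyrophosphate and squalene, and the later steps remove methyl groups and rearrange double bonds on the sterol rings. Several of the enzymes use molecular oxygen as a substrate, among them squalene epoxidase, the lanosterol demethylases and the fatty acid desaturases. Transcription of the pathway is driven by the sterol regulatory element-binding proteins (SREBPs), which act together with nuclear factor Y at CCAAT boxes and with Sp1 at GC boxes, and which INSIG proteins hold in the endoplasmic reticulum when sterols are plentiful. Insig2 is also a HIF target. CBP and p300 are transcriptional coactivators, and the CH1 domain is the part of each that binds HIF-1α.

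The upstream sequences of the genes that the results below turn on are shown because a CCAAT box recurs in the promoters of the cholesterol enzymes. The RefSeq promoter table on GRCm38.p6 held 26 of the 33 genes. Fdps, Fdft1, Sqle, Stard4, Scd1, Scd2 and Fads1 were not in it. In the 250 bases before the start, the CCAAT box on either strand was present in 13 of 15 cholesterol enzymes, or 86.7%, in 2 of 6 fatty acid enzymes and in 34.5% of all 27025 genes of the table. Among the 3816 genes of the table that reached a signal of 500, 37.5% held it. The 15 and 6 enzymes were taken from the list whether or not they reached 500. The 15 include Acat2, Mvk, Pmvk and Dhcr7, and lack Fdps, Fdft1 and Sqle. The GC box GGGCGG was present in 14 of the 15 cholesterol enzymes, in 2 of 6 fatty acid enzymes and in 64.9% of the genes that reached 500. The sterol element TCACNCCAC was found in 1 of the 15, Hmgcs1, against 1.03% of all genes and 0.97% of those that reached 500, and the E-box CACGTG in Hsd17b7 and Sc5d, against 6.04% of all genes and 9.46% of those that reached 500. The HIF core ACGTG, searched on both strands and overlapping every CACGTG match, was present in 2 of the 15, in 16.5% of all genes and in 24.3% of those that reached 500. Each match is a description of letters in the window and not a site shown to be bound. The 250 bases before the start are printed below 5′ to 3′ on the strand of the gene, with capitals marking CCAAT or its reverse ATTGG, TCACNCCAC and CACGTG.
Hmgcs1: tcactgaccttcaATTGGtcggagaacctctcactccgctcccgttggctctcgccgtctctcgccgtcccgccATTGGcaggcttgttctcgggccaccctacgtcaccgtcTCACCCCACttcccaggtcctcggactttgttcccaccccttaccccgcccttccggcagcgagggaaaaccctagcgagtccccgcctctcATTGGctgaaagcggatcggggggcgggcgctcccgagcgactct
Idi1: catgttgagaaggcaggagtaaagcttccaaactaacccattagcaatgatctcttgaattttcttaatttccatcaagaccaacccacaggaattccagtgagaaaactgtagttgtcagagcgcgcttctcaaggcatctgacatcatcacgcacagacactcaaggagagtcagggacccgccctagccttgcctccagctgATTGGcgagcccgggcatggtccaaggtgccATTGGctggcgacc
Lss: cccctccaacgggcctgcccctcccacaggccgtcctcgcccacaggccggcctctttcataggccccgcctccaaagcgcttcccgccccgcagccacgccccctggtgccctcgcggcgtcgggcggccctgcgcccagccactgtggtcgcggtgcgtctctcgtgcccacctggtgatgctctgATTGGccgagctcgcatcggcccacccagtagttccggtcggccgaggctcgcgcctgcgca
Cyp51: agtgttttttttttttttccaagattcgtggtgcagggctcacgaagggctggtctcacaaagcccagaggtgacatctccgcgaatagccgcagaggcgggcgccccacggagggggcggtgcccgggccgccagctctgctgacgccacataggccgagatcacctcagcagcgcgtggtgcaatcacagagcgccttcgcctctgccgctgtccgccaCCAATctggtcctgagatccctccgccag
Sc5d: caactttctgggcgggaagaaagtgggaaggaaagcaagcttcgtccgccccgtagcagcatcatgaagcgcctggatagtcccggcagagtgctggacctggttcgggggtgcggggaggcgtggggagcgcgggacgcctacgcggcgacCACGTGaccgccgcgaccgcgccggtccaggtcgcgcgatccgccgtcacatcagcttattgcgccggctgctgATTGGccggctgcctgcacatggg
Insig2: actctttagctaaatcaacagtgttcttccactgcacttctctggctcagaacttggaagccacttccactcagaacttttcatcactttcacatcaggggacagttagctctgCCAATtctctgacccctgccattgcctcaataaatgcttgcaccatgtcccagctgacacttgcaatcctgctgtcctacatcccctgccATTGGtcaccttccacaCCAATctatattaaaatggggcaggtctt
These stretches lie at chr13:119690101-119690350 on the plus strand for Hmgcs1, at chr13:8885356-8885605 on the plus strand for Idi1, at chr10:76531355-76531604 on the plus strand for Lss, at chr5:4104698-4104947 on the minus strand for Cyp51, at chr9:42264301-42264550 on the minus strand for Sc5d and at chr1:121332590-121332839 on the minus strand for Insig2. Hmgcs1 held 3 CCAAT boxes and the sterol element, which begins 137 bases before the start, while Idi1 held 2 CCAAT boxes within 45 bases of the start and Lss held 1 at 62 bases. Cyp51 held 1 CCAAT box at 29 bases, Sc5d held 1 and the E-box CACGTG at 98 bases, and Insig2 held 3 CCAAT boxes.

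In hypoxia the genes of cholesterol synthesis were higher as a group in both genotypes. Of the 26 measured genes, 24 were above 0 in tri-CH1 and 20 in wild type, with median log2 changes of 0.52 and 0.37. Over all 4645 genes 46.2% were above 0 in tri-CH1 and 42.7% in wild type, with medians of -0.033 and -0.053. Above 0 in both genotypes were 20 of the 26, or 76.9%, against 27.5% of all genes. Past 2-fold higher in tri-CH1 were 6 of 26 (Mvd, Idi1, Fdft1, Sqle, Lss and Scd2), where 3.19% of all genes were, and 4 of 24 counted in wild type (Idi1, Sqle, Lss and Insig2), where 3.05% of all genes were. No member was past 2-fold lower in either genotype, where 0.987% of all genes were in tri-CH1 and 1.19% in wild type. The 14 cholesterol enzymes had medians of 0.82 in tri-CH1 and 0.50 in wild type, and 13 of the 14 were above 0 in each. The 8 fatty acid enzymes had medians of 0.32 in tri-CH1 and 0.0074 in wild type, with 7 and 4 above 0.

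The hypoxia change averaged over both genotypes was tested with a limma fit of oxygen plus genotype on the 4 arrays, an analysis added after the values were seen. The fit pairs hypoxia with normoxia within each genotype, has 1 residual degree of freedom per gene, and takes any difference in response between the genotypes as error. Its variances were moderated across genes with 6.43 prior degrees of freedom, so most of the error behind a p-value comes from other genes. The p-values measure no spread between embryos or cultures. After Benjamini-Hochberg adjustment over 4645 genes, 7 of the 26 members were higher in hypoxia at an adjusted p under 0.05. Of all genes 3.38% were higher. None of the members was lower, where 1.05% of all genes were. Without adjustment, 14 of the 26 were higher and 0 lower at a p under 0.05 in the limma fit. Of all 4645 genes, 441 were higher and 484 lower at that threshold. Sqle had a mean log2 change of 1.14 (limma, adjusted p = 0.00952), Idi1 of 1.07 (adjusted p = 0.0116) and Lss of 1.06 (adjusted p = 0.0119). Scd2, Stard4, Hmgcs1 and Insig2 had mean changes of 0.92, 0.84, 0.78 and 1.08 with adjusted p of 0.0319, 0.0323, 0.0464 and 0.0473 in the same limma fit. Fdft1 and Mvd, past 2-fold in tri-CH1, had adjusted p of 0.0518 and 0.12 there. The count of members higher at an adjusted p under 0.05 in the limma fit was 3 under quantile normalization. It was also 3 with the mean over all probe sets.

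**Figure D1:**
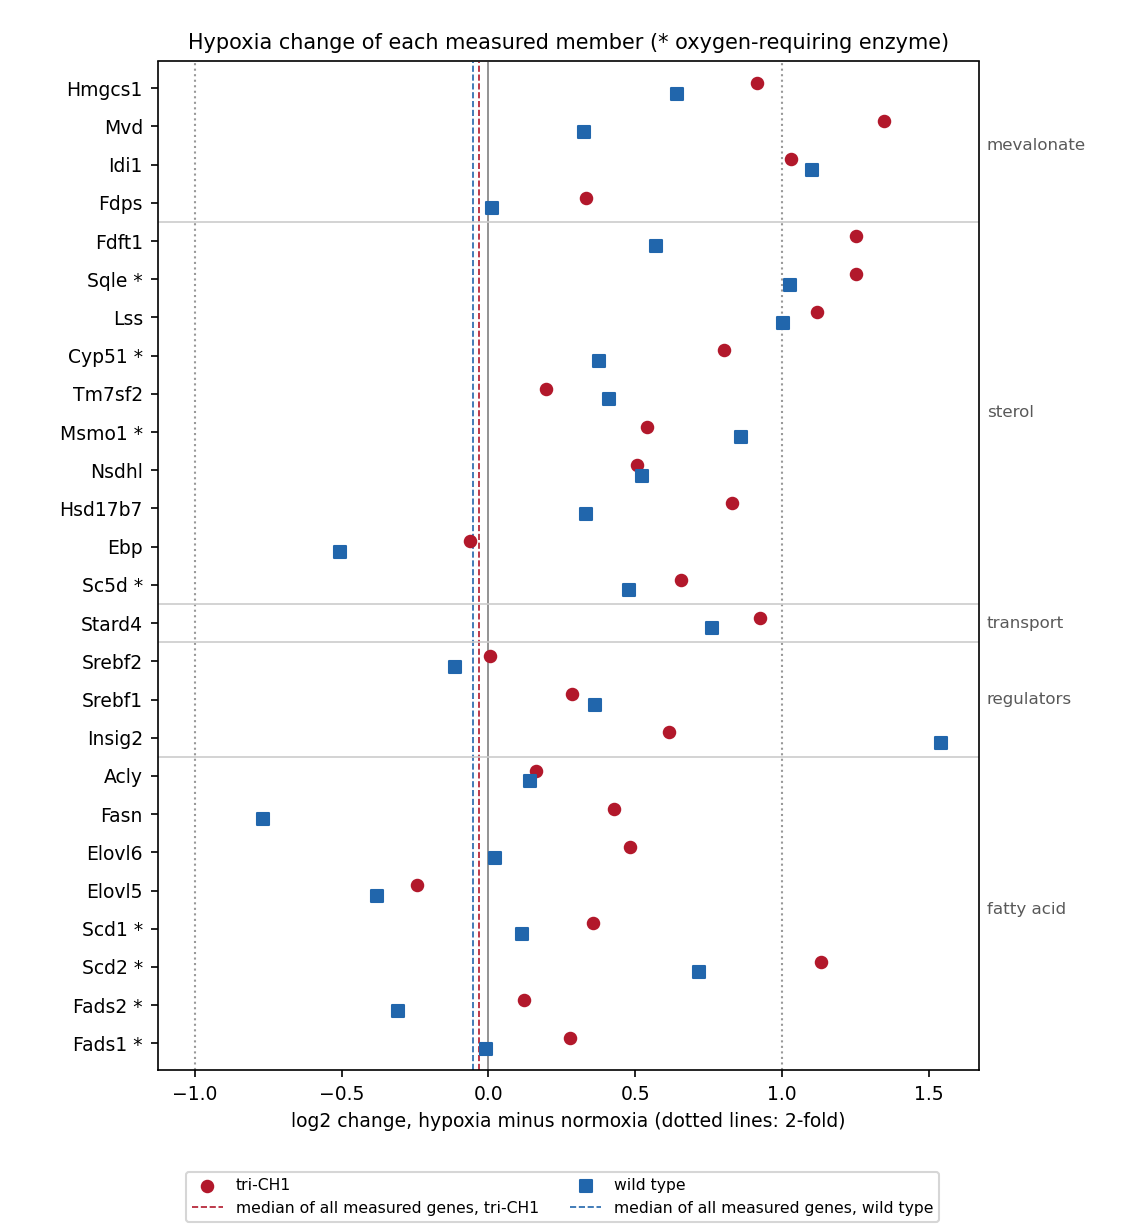
Log2 change in signal, hypoxia minus normoxia, for each measured gene (rows, in pathway order) in tri-CH1 (red) and wild-type (blue) fibroblasts, 1 array per group, with dotted lines at 2-fold and dashed lines at the medians of all measured genes. Most cholesterol genes lie right of 0 in both genotypes, Insig2 lies furthest right in wild type at 1.54, and Fasn lies on opposite sides at 0.43 in tri-CH1 and -0.77 in wild type.

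The mevalonate arm, which carries acetyl-CoA units to farnesyl pyrophosphate, was measured through 4 enzymes. Hmgcs1, which makes HMG-CoA, had signals of 4503 in tri-CH1 hypoxia and 2390.3 in tri-CH1 normoxia, and of 4861 in wild-type hypoxia and 3110.3 in wild-type normoxia. Its brightest probe set was 1.88-fold higher in hypoxia in tri-CH1 and 1.56-fold in wild type, under 2-fold in each, while its other 3 probe sets exceeded 2-fold in tri-CH1, at 1.09 to 1.52 on the log2 scale. Hmgcs1 was higher in hypoxia on every probe set in both genotypes.

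Mvd, which decarboxylates mevalonate pyrophosphate, had signals of 825 in tri-CH1 hypoxia and 324 in tri-CH1 normoxia, and of 458 in wild-type hypoxia and 365 in wild-type normoxia. It rose 2.54-fold in tri-CH1, the only hypoxia comparison in which it counted, and the tri-CH1 hypoxia array was the only 1 of the 4 above 500. Its other probe set had log2 changes of 0.62 in tri-CH1 and 0.20 in wild type, so the call rests on 1 of 2 probe sets and their mean was 0.98. Idi1, which converts isopentenyl to dimethylallyl pyrophosphate, had signals of 1582 in tri-CH1 hypoxia and 774 in tri-CH1 normoxia, against 2208 in wild-type hypoxia and 1028 in wild-type normoxia. It rose 2.04-fold in tri-CH1 and 2.15-fold in wild type, and its second probe set gave a log2 change of at least 0.86 in tri-CH1, where its normoxia signal of 143.5 was raised to 200, and of 0.87 in wild type, where the mean of both probe sets was 0.98, under 2-fold. Fdps, which makes farnesyl pyrophosphate, had signals of 4979 in tri-CH1 hypoxia, 3956 in tri-CH1 normoxia, 5291 in wild-type hypoxia and 5248 in wild-type normoxia. Its log2 changes with hypoxia were 0.33 in tri-CH1 and 0.01 in wild type, the smallest of the 4 enzymes in wild type.

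The steps from farnesyl pyrophosphate to the sterol rings included Sqle and Lss, which rose in both genotypes. Fdft1, squalene synthase, had signals of 1442 in tri-CH1 hypoxia and 605 in tri-CH1 normoxia, and of 1712 in wild-type hypoxia and 1152 in wild-type normoxia. It rose 2.38-fold in tri-CH1 and was 1.49-fold higher in wild type, while its second probe set gave log2 changes of 0.97 in tri-CH1 and 0.78 in wild type, under 2-fold in each. Averaged with its dim probe sets, the tri-CH1 change of Fdft1 was 0.086. Sqle, squalene epoxidase and the first step to consume oxygen, had signals of 2987 in tri-CH1 hypoxia and 1253 in tri-CH1 normoxia, and of 3606.5 in wild-type hypoxia and 1769 in wild-type normoxia. Both hypoxia arrays were brighter than both normoxia arrays, and the log2 changes were 1.25 in tri-CH1 and 1.03 in wild type. Lss, lanosterol synthase, which closes the rings, had signals of 1278 in tri-CH1 hypoxia, 588 in tri-CH1 normoxia, 1310.1 in wild-type hypoxia and 653 in wild-type normoxia. It rose 2.17-fold in tri-CH1 and 2.01-fold in wild type, and its wild-type change was under 2-fold, like that of Sqle, when each array was scaled to the same median, with log2 changes of 0.93 and 0.95. On the brightest probe sets Sqle, Lss and Idi1 were the 3 members past 2-fold in both genotypes. They were 11.5% of the 26 members, against 1.7% of all genes.

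**Figure D2:**
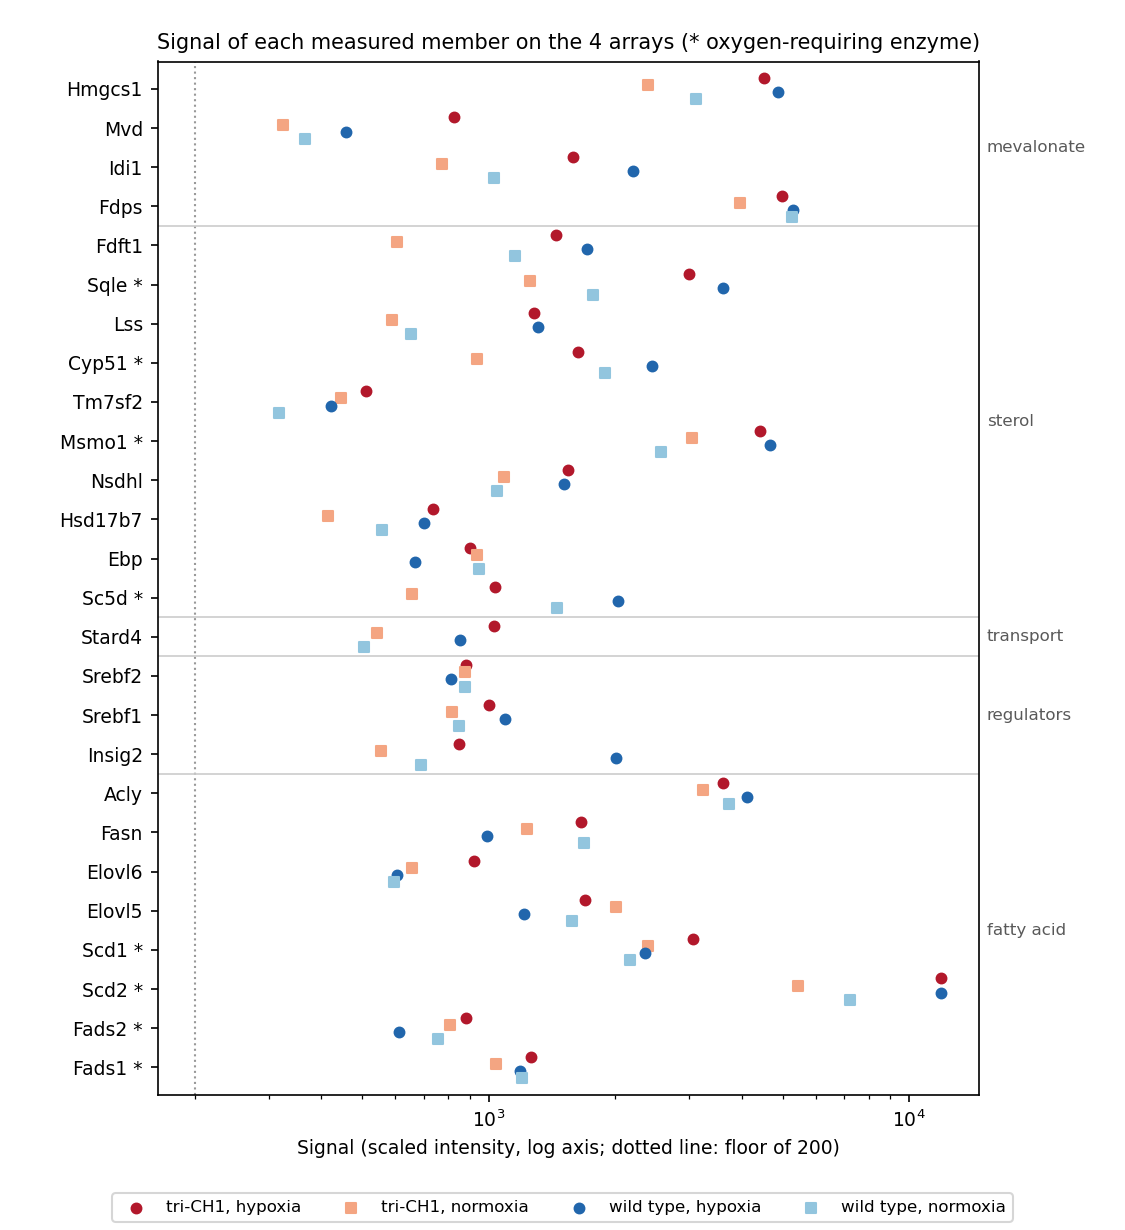
Signal on each of the 4 arrays for the measured genes (horizontal log axis, 1 point per array), in pathway order, circles for hypoxia and squares for normoxia, reds for tri-CH1 and blues for wild type. The hypoxia points of Sqle, Lss and Idi1 lie right of the normoxia points of the same genotype by 2-fold or more, and levels are not comparable between genes.

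No sterol step after lanosterol reached 2-fold with hypoxia on its brightest probe set. Cyp51, lanosterol 14-demethylase, which uses oxygen, had signals of 1632 in tri-CH1 hypoxia and 936 in tri-CH1 normoxia, and of 2450 in wild-type hypoxia and 1887 in wild-type normoxia, with log2 changes of 0.80 in tri-CH1 and 0.38 in wild type. Tm7sf2, a sterol C14 reductase, was dim at 511 in tri-CH1 hypoxia, 446 in tri-CH1 normoxia, 421 in wild-type hypoxia and 317 in wild-type normoxia. Msmo1, the C4 methyl sterol monooxygenase, had signals of 4421 in tri-CH1 hypoxia and 3036.5 in tri-CH1 normoxia, and of 4668 in wild-type hypoxia and 2571 in wild-type normoxia, and it was the cholesterol enzyme with the most negative difference in response, its log2 change being 0.54 in tri-CH1 and 0.86 in wild type.

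Nsdhl, the sterol decarboxylase that follows Msmo1, had signals of 1539.9 in tri-CH1 hypoxia and 1084 in tri-CH1 normoxia, and of 1508 in wild-type hypoxia and 1049 in wild-type normoxia. Its log2 changes of 0.51 in tri-CH1 and 0.52 in wild type differed by less than those of any other measured cholesterol enzyme. Hsd17b7, the 3-ketosterol reductase, had signals of 737 in tri-CH1 hypoxia and 415 in tri-CH1 normoxia, and of 703 in wild-type hypoxia and 558 in wild-type normoxia. Its log2 changes were 0.83 in tri-CH1 and 0.33 in wild type on the brightest probe set, and 0.50 in tri-CH1 and 0.77 in wild type on the other, so the 2 probe sets order the genotypes oppositely. Ebp, the sterol isomerase, was the only cholesterol enzyme among those that reached 500 to lie below 0, with signals of 900.2 in tri-CH1 hypoxia and 940 in tri-CH1 normoxia, and of 666 in wild-type hypoxia and 946 in wild-type normoxia. Its log2 change was -0.06 in tri-CH1 and -0.51 in wild type. Ebp and Nsdhl are X-linked, and their values between genotypes cannot be told apart from embryo sex.

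Sc5d, the C5 desaturase that uses oxygen near the end of the pathway, had signals of 1037 in tri-CH1 hypoxia and 658 in tri-CH1 normoxia, and of 2030.5 in wild-type hypoxia and 1457 in wild-type normoxia. On the brightest probe set its log2 changes with hypoxia, 0.66 in tri-CH1 and 0.48 in wild type, were smaller than its genotype differences. The other Sc5d probe set, under 500 on every array, gave 0.49 in tri-CH1 and -0.13 in wild type. The mean of both in wild type was 0.17. Stard4, which carries cholesterol between membranes, had signals of 1029 in tri-CH1 hypoxia and 542.5 in tri-CH1 normoxia, and of 855 in wild-type hypoxia and 505 in wild-type normoxia. It was 1.90-fold higher in hypoxia in tri-CH1 and 1.69-fold in wild type, each under 2-fold. Its second probe set, under 500 on every array, gave log2 changes of 0.071 in tri-CH1 and 0.80 in wild type. These probe sets order the genotypes oppositely, and their mean in tri-CH1 was 0.50. The 3 cholesterol enzymes under 500 on every array differed by less than 2-fold: Mvk had log2 changes of 0.39 in tri-CH1 and 0.32 in wild type, Pmvk of -0.15 and -0.42, and Dhcr7 of 0.41 and 0.05.

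The regulators did not move together. Insig2 rose 2.91-fold with hypoxia in wild type and was 1.53-fold higher in tri-CH1, with signals of 849 in tri-CH1 hypoxia and 554 in tri-CH1 normoxia, against 2009.8 in wild-type hypoxia and 689.5 in wild-type normoxia. Its log2 change in tri-CH1 was 0.93 below that in wild type, and 85 of the 4645 genes had a more negative difference. The other 2 probe sets were also past 2-fold in wild type, with log2 changes of 1.24 and 1.31, while in tri-CH1 the brighter of them gave 0.86 and the dimmer stayed under a signal of 200 on both arrays. Srebf2, the SREBP of cholesterol synthesis, had signals of 883 in tri-CH1 hypoxia, 879 in tri-CH1 normoxia, 812 in wild-type hypoxia and 878 in wild-type normoxia, and Srebf1, the SREBP of fatty acid synthesis, had 999 in tri-CH1 hypoxia, 819 in tri-CH1 normoxia, 1093 in wild-type hypoxia and 849.9 in wild-type normoxia. No array pair differed by 2-fold in either, and the second Srebf2 probe set gave log2 changes of 0.60 in tri-CH1 and -0.19 in wild type. Scap, the escort of the SREBPs, stayed under 500. These are RNA levels, and the processed proteins that act on the promoters were not measured.

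The changes in the fatty acid arm differed between its enzymes. Acly, which makes cytosolic acetyl-CoA, had signals of 3615 in tri-CH1 hypoxia, 3230.2 in tri-CH1 normoxia, 4106 in wild-type hypoxia and 3719.6 in wild-type normoxia, and its 3 probe sets that reached 500 gave log2 changes of 0.16 to 0.51 in tri-CH1 and of -0.17 to 0.38 in wild type. Fasn, fatty acid synthase, had signals of 1661 in tri-CH1 hypoxia and 1236 in tri-CH1 normoxia, against 993 in wild-type hypoxia and 1689 in wild-type normoxia. It was 1.34-fold higher in hypoxia in tri-CH1 and 1.70-fold lower in hypoxia in wild type, each under 2-fold, and the difference between the changes was 1.19 on the log2 scale, with 34 of the 4645 genes having a more positive difference. Fasn has 1 probe set here. Acaca, acetyl-CoA carboxylase, stayed under 500, with log2 changes of -0.17 in tri-CH1 and -0.53 in wild type.

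Elovl6, which elongates saturated chains, had signals of 921 in tri-CH1 hypoxia and 659 in tri-CH1 normoxia, and of 605 in wild-type hypoxia and 595 in wild-type normoxia. Elovl5, which elongates polyunsaturated chains, had signals of 1694 in tri-CH1 hypoxia and 2004 in tri-CH1 normoxia, and of 1214 in wild-type hypoxia and 1579 in wild-type normoxia. Elovl6 and Elovl5 had log2 changes of 0.48 and -0.24 in tri-CH1 and of 0.02 and -0.38 in wild type. The dimmer Elovl6 probe set, under 500 on every array, gave -0.43 in tri-CH1 and -0.29 in wild type, and the second Elovl5 probe set gave -0.13 in tri-CH1 and -0.07 in wild type. Scd2, a delta-9 desaturase, had signals of 11921.5 in tri-CH1 hypoxia and 5439.6 in tri-CH1 normoxia, and of 11911.6 in wild-type hypoxia and 7244 in wild-type normoxia, and rose 2.19-fold in tri-CH1 against 1.64-fold in wild type. Its other 2 probe sets rose past 2-fold in both genotypes, with log2 changes of 1.37 and 1.65 in tri-CH1 and of 1.32 and 1.24 in wild type. Scd1, the related desaturase, had signals of 3063 in tri-CH1 hypoxia and 2394.5 in tri-CH1 normoxia, and of 2352 in wild-type hypoxia and 2170.1 in wild-type normoxia, with log2 changes of 0.36 in tri-CH1 and 0.12 in wild type. The second Scd1 probe set gave 0.11 in tri-CH1 and -0.32 in wild type, where the mean of both was -0.10. Fads2 and Fads1 are the delta-6 and delta-5 desaturases. Fads2 had signals of 881 in tri-CH1 hypoxia and 810.5 in tri-CH1 normoxia, and of 613 in wild-type hypoxia and 758.5 in wild-type normoxia. Fads1 stayed between 1041 and 1263 in tri-CH1 and between 1189 and 1197 in wild type. They had log2 changes of 0.12 and 0.28 in tri-CH1 and of -0.31 and -0.01 in wild type. On the brightest probe sets all 8 fatty acid enzymes had a higher change in tri-CH1 than in wild type, with a median difference of 0.35, against 0.028 over all genes. The difference was above 0 in 53% of all genes and in 71.4% of the cholesterol enzymes, and for Acly it was 0.020. The other probe sets of Elovl6 and Elovl5 gave differences of -0.14 and -0.06, the opposite order.

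**Figure D3:**
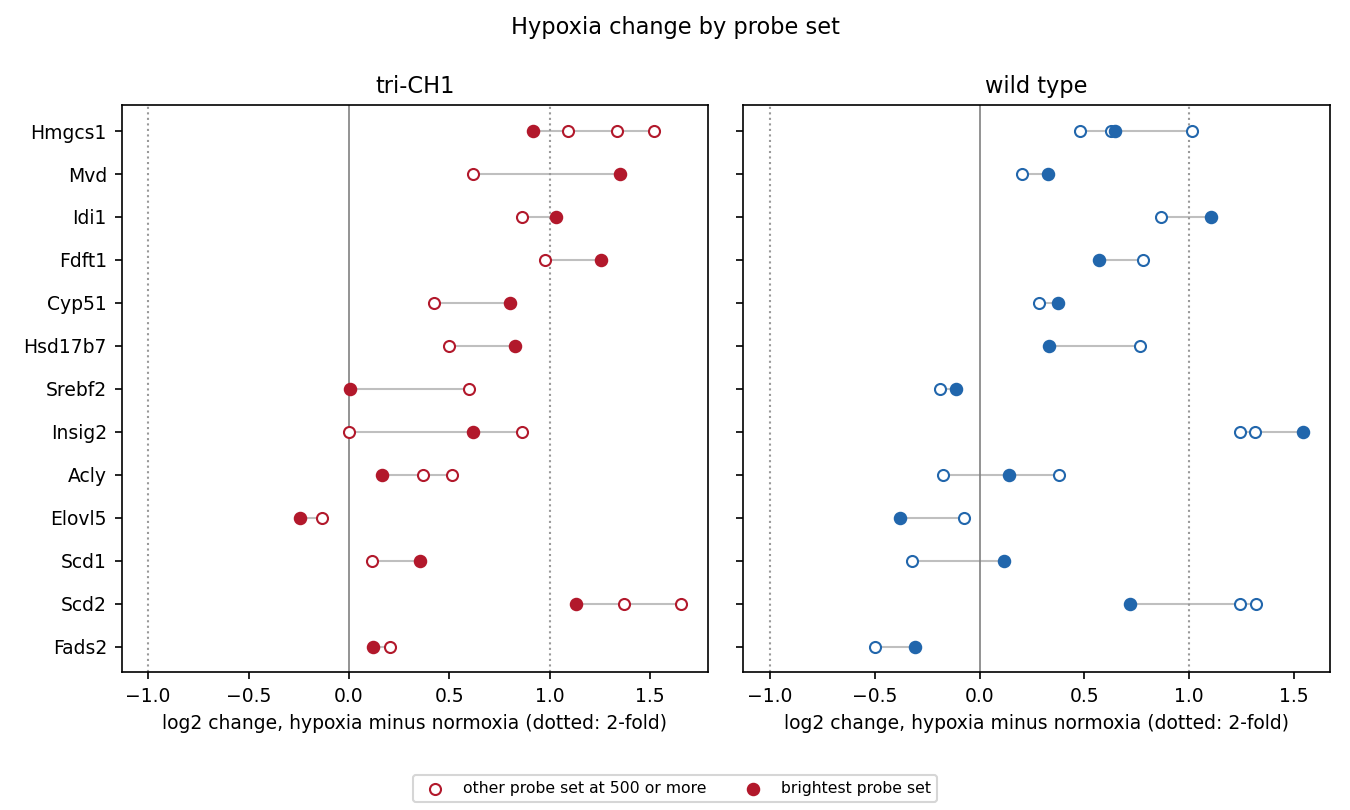
Log2 change with hypoxia on the brightest probe set (filled) and on every other probe set that reached 500 (open) for the 13 members that have more than 1, in tri-CH1 (left) and wild type (right). The probe sets of Mvd lie at 1.35 and 0.62 in tri-CH1, all 3 of Scd2 lie past 2-fold there, and the open Insig2 point at 0 in tri-CH1 is a probe set under 200 on both arrays there.

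The enzymes that use oxygen were set against the others. Over the 8 oxygen-requiring enzymes (Sqle, Cyp51, Msmo1, Sc5d, Scd1, Scd2, Fads1 and Fads2) the median log2 change was 0.60 in tri-CH1 and 0.43 in wild type, and over the 14 others it was 0.49 in tri-CH1 and 0.33 in wild type. At a minimum signal of 1000 the order turned in wild type, with 0.48 for the oxygen-requiring enzymes and 0.52 for the others, and with the mean over all probe sets it turned in both genotypes, with 0.41 against 0.43 in tri-CH1 and 0.31 against 0.41 in wild type. The ranges overlapped, the oxygen-requiring enzymes running from 0.12 to 1.25 in tri-CH1 and from -0.31 to 1.03 in wild type. Within cholesterol synthesis the 4 oxygen-requiring enzymes had a median of 0.73 against 0.87 for the other 10 in tri-CH1, and of 0.67 against 0.47 in wild type, so the order differed between genotypes.

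**Figure D4:**
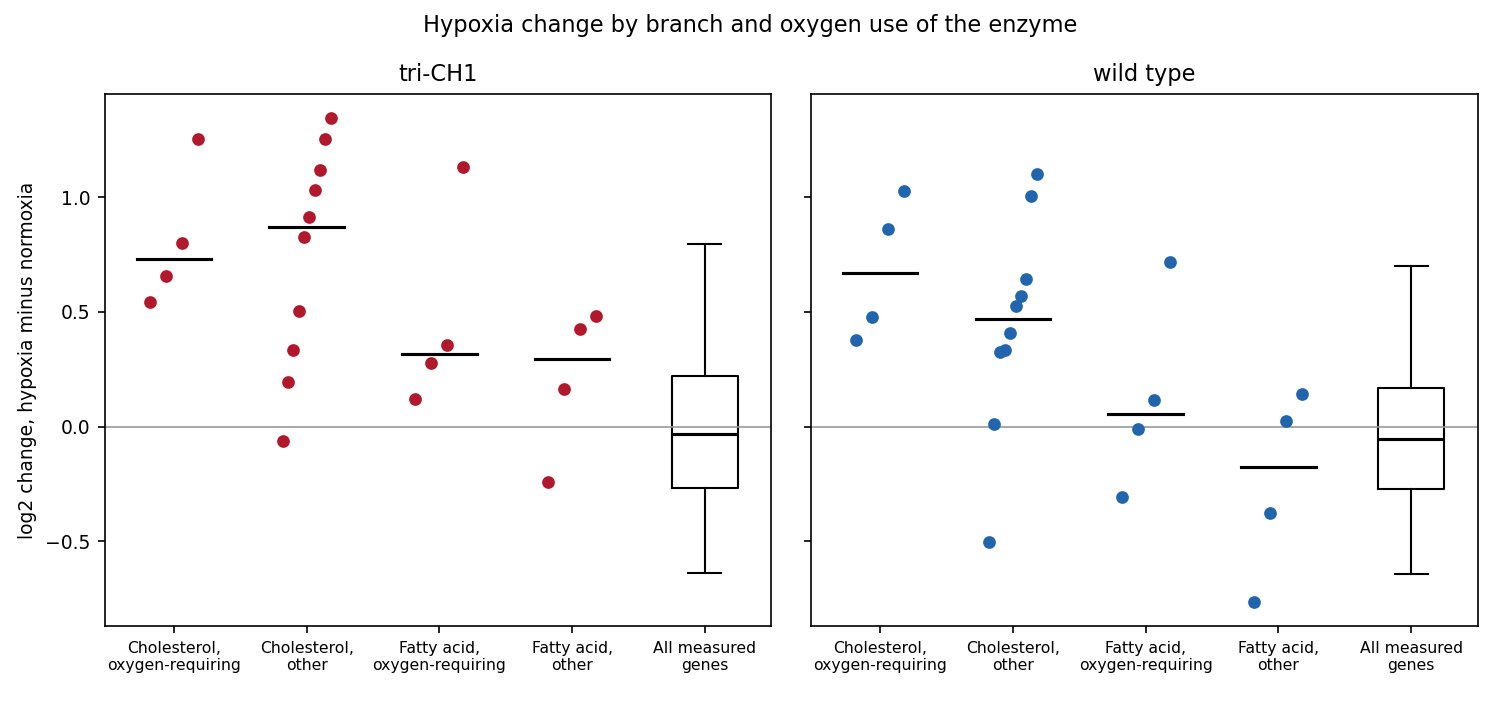
Log2 change with hypoxia of each measured enzyme by branch and oxygen use (columns), in tri-CH1 (left) and wild type (right), with black lines at the medians and a box for all measured genes (quartiles, with whiskers at percentiles 5 and 95). The oxygen-requiring enzymes overlap the others in every branch.

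Between genotypes the cholesterol enzymes tended to be lower in tri-CH1 in normoxia. The 14 enzymes had a median log2 difference of -0.39 in normoxia, with 11 below 0, and of -0.083 in hypoxia, with 9 below 0. Over all 4645 genes the medians were 0.030 in normoxia, with 2157 below 0, and 0.051 in hypoxia, with 2066 below 0. Below 0 at both oxygen levels were 8 of the 14, or 57.1%, against 30.8% of all genes. Past 2-fold lower in normoxia were 2 of 24 counted members, Cyp51 and Sc5d, where 3.48% of all genes were, and 1 of 26, Insig2, in hypoxia, where 3.31% of all genes were. No member was past 2-fold higher, where 3.16% of all genes were in normoxia and 3.76% in hypoxia. The genotype contrasts use the same arrays as the hypoxia contrasts, so a low tri-CH1 normoxia signal enters both. For genotype, the limma fit treats the hypoxia and normoxia arrays of a genotype as its replicates. The p-values of that fit measure no spread between embryos or cultures. In the limma fit over all 4 arrays, 2 of the 26 members were lower in tri-CH1 at an adjusted p under 0.05, Sc5d with a mean difference of -1.06 (adjusted p = 0.00706) and Cyp51 with -0.80 (adjusted p = 0.0305), where 5.88% of all genes were lower. None was higher, where 5.53% of all genes were. Without adjustment, 2 of the 26 members were higher and 5 lower at a p under 0.05 in the same limma fit. Of all 4645 genes, 728 were higher and 610 lower at that threshold.

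For Sc5d the tri-CH1 signal was lower by 2.22-fold in normoxia and by 1.96-fold in hypoxia, where it fell just short of the count. Averaged with its dim probe set, the log2 difference of Sc5d was -0.63 in normoxia and -0.23 in hypoxia, and the dim probe set alone gave -0.11 in normoxia and 0.52 in hypoxia. Cyp51 was 2.02-fold lower in normoxia and 1.50-fold lower in hypoxia, and its second probe set gave -0.60 and -0.46, so it passed 2-fold on 1 of the 2 that reached 500. Under quantile normalization and cyclic loess its normoxia difference was -0.97 and -0.94, under 2-fold. Averaged with its dim probe set, Cyp51 differed by -1.20 in normoxia, where the averaged signal was too dim to count, and by -1.39 in hypoxia. Fdft1, squalene synthase, was 1.90-fold lower in normoxia but 0.25 lower on the log2 scale in hypoxia. The second probe set of Idi1 gave -1.10 in hypoxia, and in normoxia a difference of -1.09 that is limited by the floor of 200, against -0.48 in hypoxia and -0.41 in normoxia on the brightest. In hypoxia the fatty acid enzymes were on balance higher in tri-CH1, with a median of 0.43 and 7 of 8 above 0, where 55.5% of all genes were. In normoxia the median of these enzymes was -0.053 and 4 were above 0, where 53.3% of all genes were. When each array was scaled to the same median, the all-gene median in normoxia was -0.20, against 0.030 as deposited, and the cholesterol median was -0.63, so that scaling lowered both medians.

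**Figure D5:**
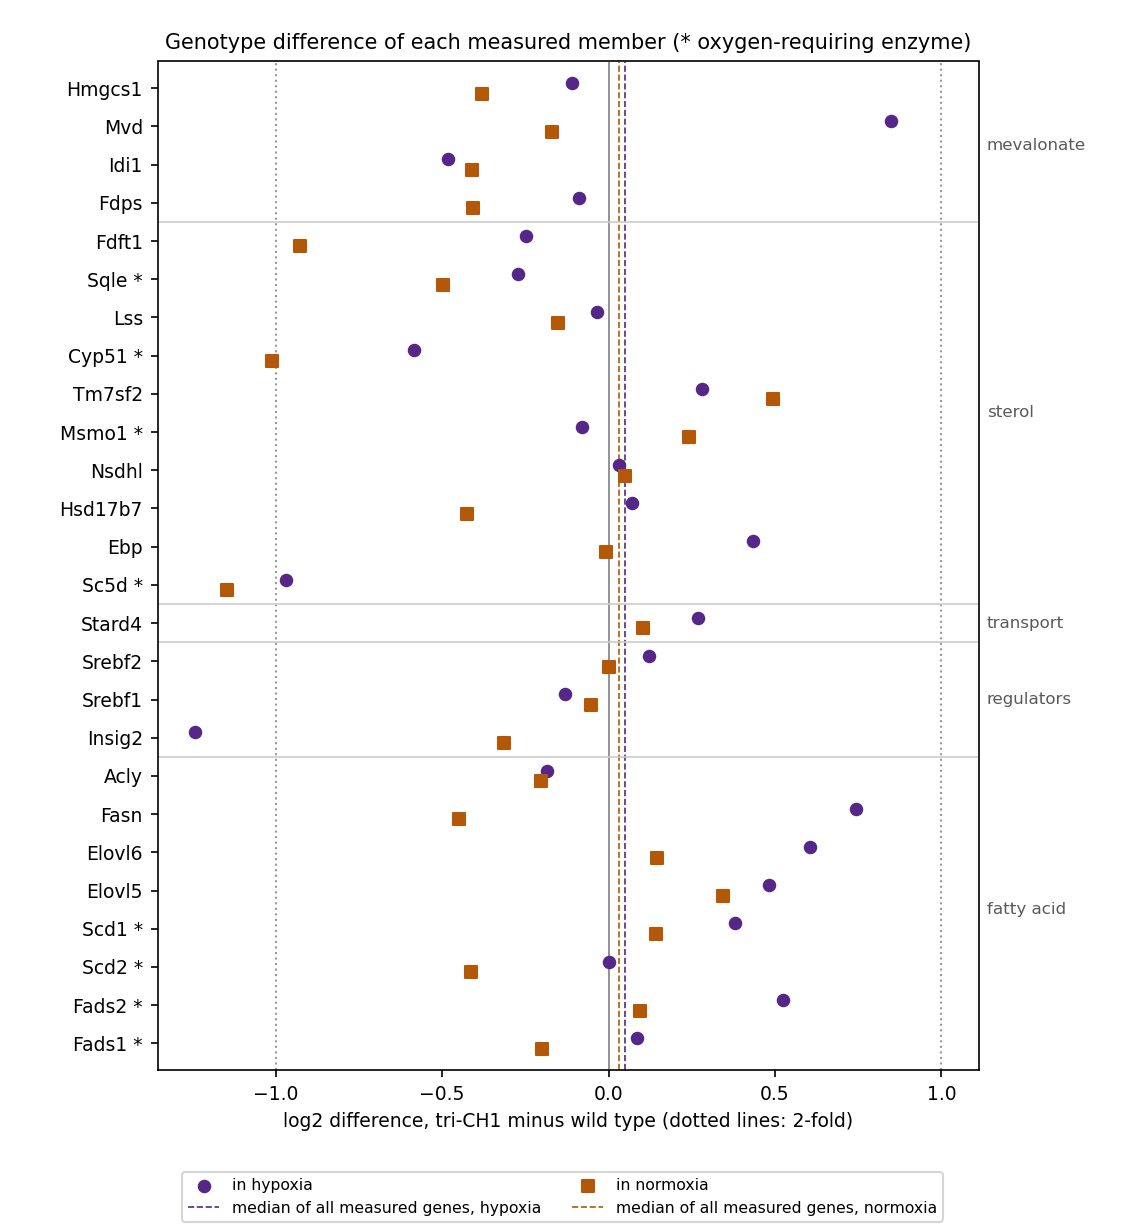
Log2 difference between tri-CH1 and wild type for each measured gene in hypoxia (circles) and in normoxia (squares), with dotted lines at 2-fold and dashed lines at the medians of all measured genes. Cyp51 and Sc5d lie past 2-fold lower in normoxia, at -1.01 and -1.15, and Insig2 lies past 2-fold lower in hypoxia at -1.24.

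A further 49 genes of sterol and fatty acid metabolism, SREBP control and electron supply, not members of the list, were read the same way. Of these 34 had a probe set and 23 reached 500, and none was past 2-fold in either hypoxia comparison, their medians being -0.015 in tri-CH1 and -0.090 in wild type. Between genotypes the medians of these 23 genes were 0.28 in hypoxia, with 69.6% above 0, and 0.031 in normoxia, with 52.2% above 0. Their median difference in hypoxia change, tri-CH1 minus wild type, was 0.17, with 65.2% above 0. Cyb5r3, the reductase that passes electrons from NADH to the cytochrome b5 used by the desaturases and by Msmo1 and Sc5d, was higher in tri-CH1, with signals of 8754 in tri-CH1 hypoxia and 7336 in tri-CH1 normoxia against 3087 in wild-type hypoxia and 3054 in wild-type normoxia. It was 2.84-fold higher in hypoxia and 2.40-fold higher in normoxia. Acsl4, which activates long-chain polyunsaturated acids, is X-linked and had a normoxia signal 2.56-fold below wild type in tri-CH1, with signals of 639 in tri-CH1 hypoxia, 447 in tri-CH1 normoxia, 1274 in wild-type hypoxia and 1142 in wild-type normoxia.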

How the data were processed

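Each group was 1 Affymetrix array, measured from total RNA labelled with biotin. Per the labels, the deposited intensity values are signals from the Affymetrix statistical algorithm, scaled by the authors to a target of 500 on every array; the software version is not given in the sources used here. Names came from the platform annotation: of 22690 probe sets, 20380 had 1 gene symbol, 691 several, 1555 none, and 64 were controls. Only probe sets with 1 symbol were named. The brightest probe set by mean signal stood for a gene, and medians covered genes that reached 500 on any array. Signals were raised to a floor of 200, and log2 differences and counts of 2-fold differences were computed with Python 3.11.15, numpy 2.4.6 and pandas 2.3.3; quantile and cyclic loess alternatives and an added fit of oxygen plus genotype over the 4 arrays (lmFit and eBayes on floored log2 signals of 4645 genes) used limma 3.58.1 in R 4.3.3. The calculations were tested on simulated data. The number of arrays limits the precision. For 1505 genes with 2 or more probe sets at 500, the log2 changes of the 2 brightest were compared. The SD of their gap over these genes, divided by the square root of 2, was 0.25 to 0.33 across the comparisons. The named genes were all 33 members, members of the second list past 2-fold in a hypoxia comparison, and Bnip3, Slc2a1 and Ndrg1; Cyb5r3 and Acsl4 were named after their values were seen. The members and lists were chosen with earlier results of these data known. Proteins were not used here.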

Additional observations from a re-analysis of the deposited data

Results flagged for a closer look

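Fasn moved in opposite directions with hypoxia in the genotypes, higher in tri-CH1 with a log2 change of 0.43 and lower in wild type with -0.77. The difference between the changes was 1.19 on the log2 scale. With 1 array per group this difference was not tested, and each change was under 2-fold.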

How the results depend on the processing

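Single arrays limit every value, embryo sex every genotype value and the other array lot every value that uses wild-type normoxia; depth here means signal over background, which is low for dim genes. The only paired fit, of hypoxia and normoxia within genotype, is the limma fit added after the values were seen; no array could be left out of a comparison of 2. Over 11 alternatives, 222 summary values stayed close (a median within 0.1 log2, a count within 1.5 times), 26 moved and 5 changed sign; members past 2-fold higher numbered 4 to 6 in tri-CH1 and 2 to 4 in wild type. A floor of 400 gave a median of 0.17 for the enzymes that do not use oxygen in wild type. A minimum of 250 gave medians of 0.66 for cholesterol enzymes in tri-CH1, -0.29 for them between genotypes in normoxia, and -0.0091 and 0.096 for fatty acid enzymes in wild type with hypoxia and between genotypes in normoxia. A minimum of 1000 gave 0.52 for members and for the enzymes not using oxygen in wild type, 0.61 for cholesterol enzymes in wild type, and 0.23 and -0.20 for fatty acid enzymes between genotypes in hypoxia and normoxia. Plain probe sets alone gave 0.20 for the enzymes not using oxygen in wild type. Under quantile normalization and cyclic loess, 1 member was past 2-fold lower in normoxia. Scaling to the same median gave 2 members past 2-fold higher in wild type and 2 lower in tri-CH1 in hypoxia, a median difference in response of 0.38 (all genes 0.18), -0.63 for cholesterol enzymes and -0.27 for fatty acid enzymes between genotypes in normoxia, and -0.068 for fatty acid enzymes in wild type; calls over all genes were 116 higher and 72 lower in wild type, against 126 and 49, and 81 higher and 262 lower in tri-CH1 normoxia, against 137 and 151. The mean over all probe sets gave 0 members lower in normoxia, of 15 counted, and 2 in hypoxia, of 23 counted. It gave 0.41 and 0.31 for oxygen-requiring enzymes in tri-CH1 and wild type. For cholesterol enzymes it gave 0.56 in tri-CH1 and -0.19 between genotypes in normoxia. For fatty acid enzymes it gave -0.14 in wild type and 0.32 between genotypes in hypoxia. The mean over probe sets at the minimum gave 1 member lower in normoxia, 0.66 for cholesterol enzymes in tri-CH1, and -0.056 and 0.32 for the same fatty acid values. In the limma fit, members higher with hypoxia numbered 3 under quantile normalization and 3 with the mean over all probe sets, against 7, and members lower in tri-CH1 numbered 4 with a floor of 400, 1 under quantile normalization and 4 with the mean over probe sets at the minimum, against 2. The cause was not tested.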

Other observations

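Of the further genes, 11 stayed under a signal of 500 on every array, and Acss2 and Lpin1 are named among them after their values were seen. Acss2, which makes acetyl-CoA from acetate, had signals of 416 in tri-CH1 hypoxia and 222 in tri-CH1 normoxia, and of 314 in wild-type hypoxia and 192.3 in wild-type normoxia. Lpin1, a phosphatidate phosphatase, had 281 in tri-CH1 hypoxia and 107.9 in tri-CH1 normoxia, and 369.9 in wild-type hypoxia and 109.1 in wild-type normoxia. The log2 changes of the other 9 with hypoxia ran from -0.41 to 0.041 in tri-CH1 and from -0.17 to 0.51 in wild type.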
